A study of Drosophila melanogaster with 58 samples.

Results

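The genes described here are the cytochrome P450 genes of the fruit fly Drosophila melanogaster outside the Cyp6a cluster. They were taken by symbol: every gene of the array's annotation whose symbol starts with Cyp and a digit, except Cyp6a2, Cyp6a8, Cyp6a9, Cyp6a17, Cyp6a20, Cyp6a21, Cyp6a22, Cyp6a23, Cyp6w1 and Cyp4g1. Each gene was read from 1 probe set, the one with the highest mean over all arrays, and probe sets that name several genes were left out. The rule found 73 of the 11982 genes measured this way. Cyp1 and Cyp40 among them are cyclophilins, which are peptidyl-prolyl isomerases and not P450s, so they were set apart and 71 P450 genes remained. By family number these are 31 genes of the CYP4 clan, 28 of the CYP6/9/28 clan, 8 of the CYP12/mitochondrial clan and 4 of the CYP2 clan. P450s that carry names of another kind, such as disembodied, are not among them.

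Heads of adult unmated Oregon R males, a wild-type laboratory strain, were profiled on 58 arrays in 15 groups. The flies were 10 days old, lived 30 to a vial at 25 degrees C and had eaten their diet for 7 days. In 6 groups the food held the convulsant pentylenetetrazole (PTZ), which blocks GABA-A receptors, together with levetiracetam (an anticonvulsant), glucosamine (an amino sugar), mannitol (a sugar alcohol), olmesartan (an angiotensin receptor blocker), quinapril (an inhibitor of angiotensin-converting enzyme) or oxaprozin (a nonsteroidal anti-inflammatory drug). A further group received PTZ alone, and 7 groups received a single other compound: levetiracetam, glucosamine, mannitol, olmesartan, moxifloxacin (a fluoroquinolone antibiotic), gemfibrozil (a fibrate) or quinapril. The last group ate normal food. Each group has 4 arrays except moxifloxacin, which has 2. The labels state no dose, and oxaprozin is represented only together with PTZ.

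P450s are haem-containing monooxygenases that insert an oxygen atom into a substrate. Microsomal P450s, to which most members of the CYP4, CYP6/9/28 and CYP2 clans belong, take electrons from cytochrome P450 reductase and cytochrome b5, and mitochondrial P450s take them from a ferredoxin. In insects many CYP6, CYP9, CYP28 and CYP12 enzymes oxidise plant toxins, drugs and insecticides, CYP4 enzymes include fatty acid hydroxylases, and several CYP2-clan and mitochondrial enzymes act on the moulting hormone ecdysone. A head holds brain, glia, fat body, muscle and sense organs, so in these bulk samples fewer cells of a type and less RNA per cell cannot be told apart.

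Levels are log2 values from RMA, a method that corrects background, makes the arrays' distributions alike and summarises the probes of a set. Changes are differences of group means on that scale ± SE, and a gene was called when its adjusted p from limma was under 0.05. Levels of different probe sets are not comparable with each other. Among the 71 genes, 14 had a mean under 3.09, the level below which 40% of all probe sets lay, where differences are compressed. The median SD of the 71 genes within a group was 0.089. Nothing in the labels tells whether arrays of 1 group came from separate vials of flies. A p-value from the fit to single arrays therefore reflects only array-to-array spread, possibly technical. The later tests over pairs of groups, and those of neighbouring genes, take each pair of groups as a unit. Their p-values reflect the spread between pairs of groups.

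Several measures unrelated to P450s moved with the groups, and their part in the results below was not tested. A covariate or block for such a measure is estimated from spread within groups, so it cannot separate the measure from the diet. The 5′ minus 3′ log2 signal of the array's control transcripts, which falls with shorter RNA or cDNA, averaged -4.14 ± 0.23 in PTZ with levetiracetam, -4.73 ± 0.17 in PTZ with oxaprozin, -5.67 ± 0.090 in PTZ and -6.42 ± 0.22 in normal food (SD, n = 4 each). All 17 measured markers of the male reproductive tract were called lower in PTZ than in normal food, with a median level of 3.27 in PTZ and 6.10 in normal food. Of all genes 29.1% were called lower in this comparison and 31.5% higher. Of the gut markers 7 of 9 were called lower (median level 3.21 in PTZ and 4.99 in normal food), of the neuron markers 7 of 8 (9.04 and 9.69) and of the antenna markers 6 of 7 (3.16 and 4.82), with 1 called higher in each of the 3 lists. Markers of fat body (3 of 7 higher, 2 lower), glia (3 of 7 and 2), muscle (4 of 8 and 3) and Malpighian tubule (2 of 5 and 2) had calls in both directions, and of the eye markers 2 of 4 were called higher and 0 lower. The bioB hybridization control lay at an upper level on 20 arrays, among them every array of PTZ with glucosamine or mannitol and every array of mannitol, moxifloxacin or gemfibrozil alone. Within a group it varied only in olmesartan and quinapril alone, with 1 array of 4 at the upper level in each. The median level over all probe sets differed by -0.142 between PTZ and normal food, by -0.103 between mannitol and normal food and by -0.114 between gemfibrozil and normal food. No other comparison between groups had a difference beyond 0.1 in size.

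Across the 15 diets, 29 of the 71 genes spanned at least 2-fold between their highest and lowest group means. No share of all genes with such a span was computed, so nothing is read from that count. Normal food gave the lowest mean for 29 of the 71 genes (40.8%), and it did so for 16.2% of all genes measured. These were 16 of 28 CYP6/9/28 genes, 5 of 8 CYP12/mitochondrial genes, 7 of 31 CYP4 genes and 1 of 4 CYP2 genes, and 26 of them were among the 57 genes above the low range. A diet with PTZ gave the highest mean for 43 of the 71 genes (60.6%), and for 46.7% of all genes. PTZ with levetiracetam was at the top for 15 of them (21.1% of the 71 genes, and 14.9% of all genes) and PTZ with mannitol for 13 (18.3%, and 13.4% of all genes).

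**Figure D1:**
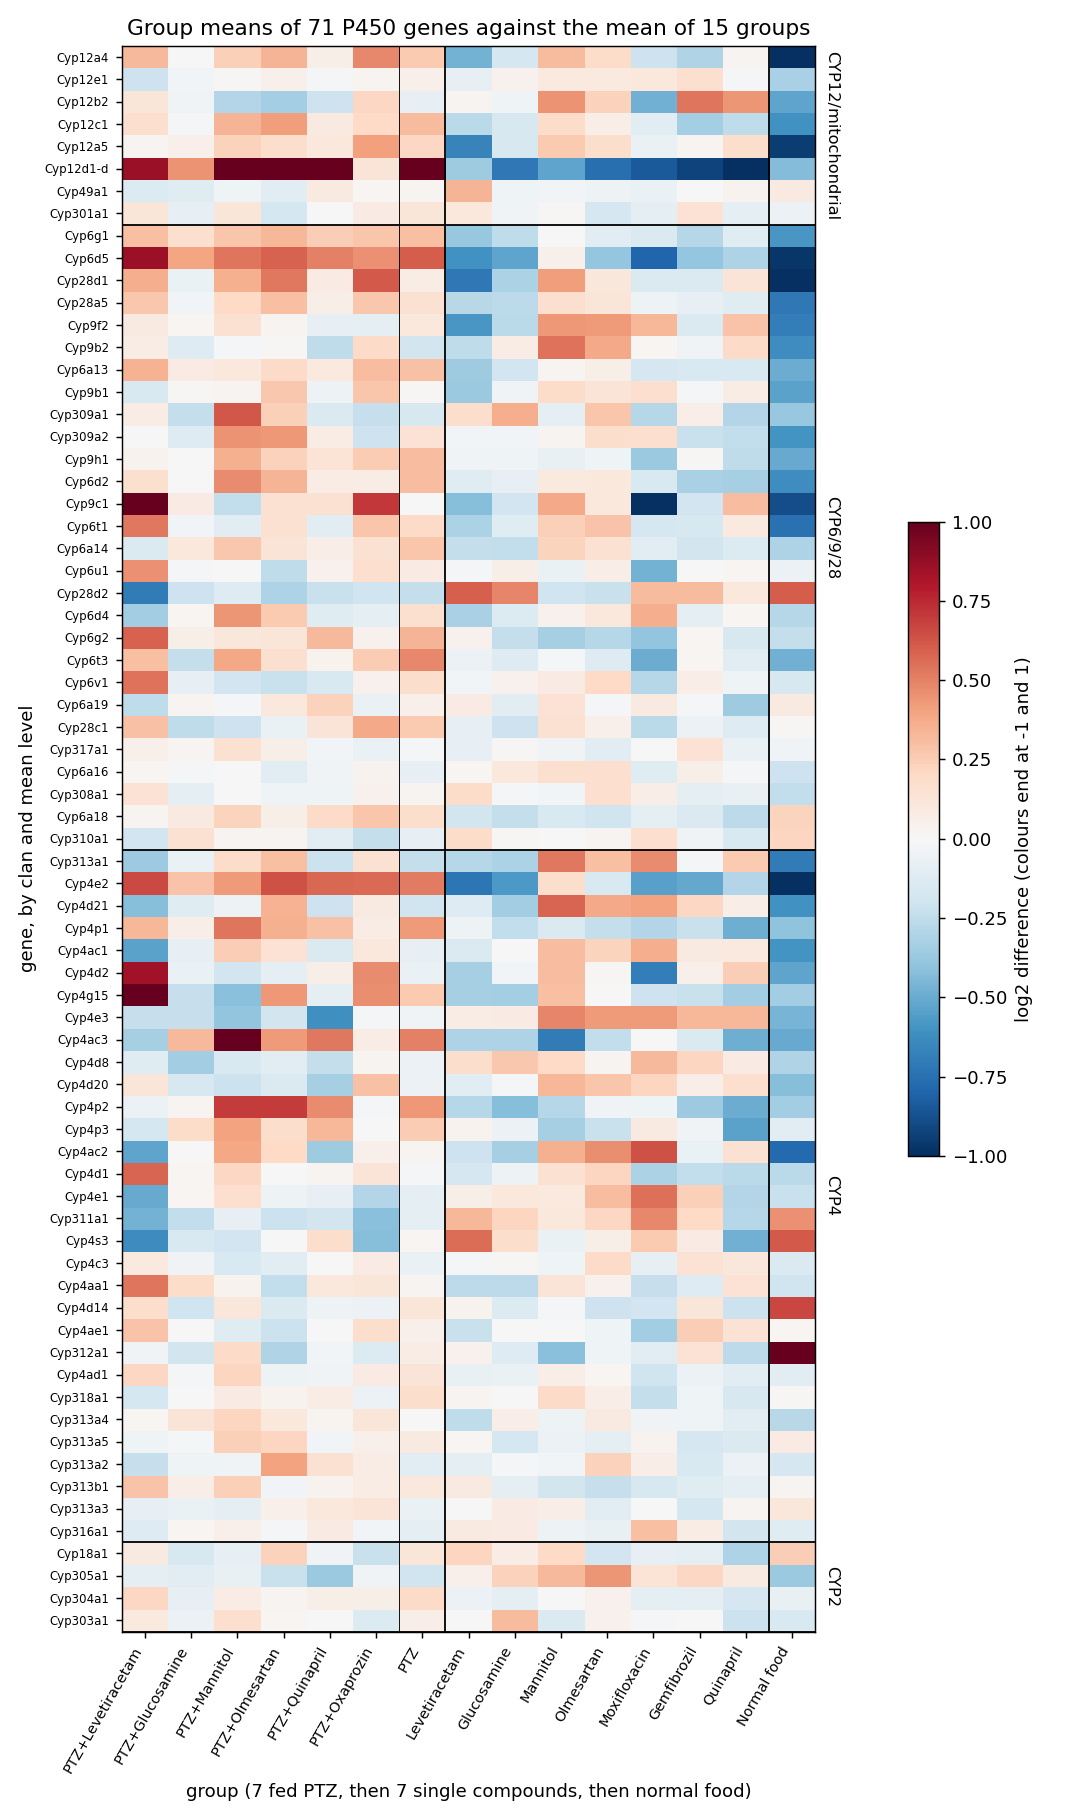
Group means of the 71 genes (down the page, by clan) in the 15 groups (across), as the log2 difference from the mean of the 15 group means, with colours ending at -1 and 1. Normal food gave the lowest mean for 29 of the 71 genes, and the mean of Cyp12d1-d is higher in each of the 7 groups with PTZ than in any group without it.

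The gene with the widest range in each clan had its own order of groups. Cyp12d1-d, of the CYP12/mitochondrial clan and known for induction by caffeine and phenobarbital, spanned 3.55 on the log2 scale, with means of 7.60 in PTZ with mannitol and 4.05 in quinapril. Cyp9c1 of the CYP6/9/28 clan spanned 2.21, with 7.38 in PTZ with levetiracetam and 5.17 in moxifloxacin. Cyp4ac3 of the CYP4 clan spanned 1.89, and both ends of its range were diets with mannitol, 7.99 in PTZ with mannitol and 6.10 in mannitol. Cyp305a1 of the CYP2 clan spanned 0.81, with 7.53 in olmesartan and 6.73 in normal food. The smallest ranges of the 71 genes were 0.27 for Cyp317a1, 0.30 for Cyp313a3 and 0.32 for Cyp301a1, an enzyme of cuticle formation, all 3 in the low range.

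PTZ alone was first set against normal food. Of the 71 P450 genes, 45 were called higher in PTZ, where 31.5% of all genes were, and 7 were called lower, where 29.1% of all genes were. The median change was 0.36 over the 71 genes and 0.0096 over all genes. In the CYP12/mitochondrial clan 6 of 8 genes rose, in the CYP6/9/28 clan 21 of 28 rose and 2 fell, in the CYP4 clan 16 of 31 rose and 4 fell, and in the CYP2 clan 2 of 4 rose and 1 fell. The rise was at least 2-fold in 7 genes, and the fall in 1, and shares of all genes at that size were not computed.

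Enzymes linked to insecticides and plant toxins were among those that rose. Cyp6g1, whose overexpression gives flies resistance to DDT and neonicotinoids, read 13.26, 13.31, 13.27 and 13.31 in PTZ, against 12.32, 12.42, 12.43 and 12.45 in normal food, a rise of 0.88 ± 0.027 (adjusted p = 4.9e-32). Cyp28d1, tied to nicotine resistance, read 11.16, 11.20, 11.12 and 11.16 in PTZ, against 9.90, 9.74, 9.78 and 9.79 in normal food, which is 2.56-fold higher (adjusted p = 2.06e-35). Cyp12a4, whose overexpression gives resistance to lufenuron, read 9.26, 9.29, 9.19 and 9.24 in PTZ, against 7.91, 7.96, 7.88 and 7.87 in normal food, which is 2.52-fold higher (adjusted p = 4.97e-36). In all 3 genes every PTZ array lay above every normal food array. Except for all arrays with PTZ against all without it, no share of all genes without overlap was computed, here or below. Nothing is read from a lack of overlap where no share is given. Cyp12a5, the neighbour of Cyp12a4, rose by 1.15 ± 0.057. Cyp6d5 was 2.99-fold higher, Cyp12d1-d 2.98-fold and Cyp4e2 2.97-fold, and these 3 are described with the other backgrounds below.

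Among the genes that fell, Cyp312a1 of the CYP4 clan read 3.43, 3.27, 3.65 and 3.92 in PTZ, against 4.20, 4.71, 4.71 and 5.14 in normal food (change -1.12 ± 0.14, adjusted p = 5.46e-10). The means of this gene lay between 3.07 and 3.69 in all 14 diets with a compound, so the normal food group stands apart. Cyp28d2 read 4.58, 5.04, 4.85 and 4.75 in PTZ, against 5.65, 5.68, 5.68 and 5.58 in normal food (change -0.85 ± 0.091). Cyp4s3 fell by 0.59, Cyp311a1 by 0.56 and Cyp4d14 by 0.55. The arrays of PTZ and normal food did not overlap for any of these 5 genes. They had the greatest called falls, so a lack of overlap goes with the choice.

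Genes of ecdysteroid metabolism did not share a direction. Cyp6t3, needed in flies for ecdysone synthesis, read 4.60, 4.74, 4.78 and 4.77 in PTZ, against 3.93, 3.79, 3.99 and 3.31 in normal food, a rise of 0.96 ± 0.12 with no overlap. Cyp18a1, which inactivates ecdysteroids, read 7.21, 7.27, 7.22 and 7.31 in PTZ, against 7.33, 7.38, 7.32 and 7.48 in normal food, and was called lower (change -0.13 ± 0.046). Its direction is not settled, since a second probe set of Cyp18a1 was called higher (0.29). The mean of both changed by 0.079, and with array medians subtracted the first changed by 0.015. Of the 5 measured ecdysteroid P450s with other symbols (dib, sad, shd, spo and spok), shd, the enzyme that makes the active hormone, was called lower with a change of -0.37 and the others were not called.

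Against the mean of the 7 diets with another single compound, 33 of the 71 genes were called higher in PTZ (25.3% of all genes) and 13 lower (20.5% of all genes), with a median of 0.15. Cyp12d1-d stood 2.03 ± 0.086 above that mean, Cyp6d5 1.03 ± 0.029 and Cyp4e2 0.89 ± 0.023. Cyp28d2 differed from it by -0.44 and Cyp305a1 by -0.40, both called lower.

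PTZ was also given on top of 5 drugs that were fed alone as well, so its effect can be read in 6 backgrounds that share no array. With levetiracetam in the food of both groups, 31 of the 71 genes were called higher with PTZ (28.4% of all genes) and 17 lower (31.1%). With glucosamine the counts were 23 higher (19% of all genes) and 10 lower (17.5%), and with mannitol 22 higher (26.5%) and 18 lower (24.3%). With olmesartan they were 21 higher (15.1%) and 15 lower (18.8%), and with quinapril 27 higher (24.8%) and 14 lower (21.4%). The median change of the 71 genes was 0.36 on normal food, 0.13 on levetiracetam, 0.11 on quinapril, 0.046 on glucosamine, 0.032 on mannitol and -0.0044 on olmesartan. With the 5′ minus 3′ signal as a covariate the levetiracetam counts were 14 higher and 11 lower. That signal averaged -4.14 in PTZ with levetiracetam and -5.82 in levetiracetam (SD 0.23 and 0.11), so it and the diet cannot be told apart. Shares of all genes were not computed for fits with a covariate or block, here or below. Whether such a shift in counts is particular to P450s was therefore not tested.

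**Figure D2:**
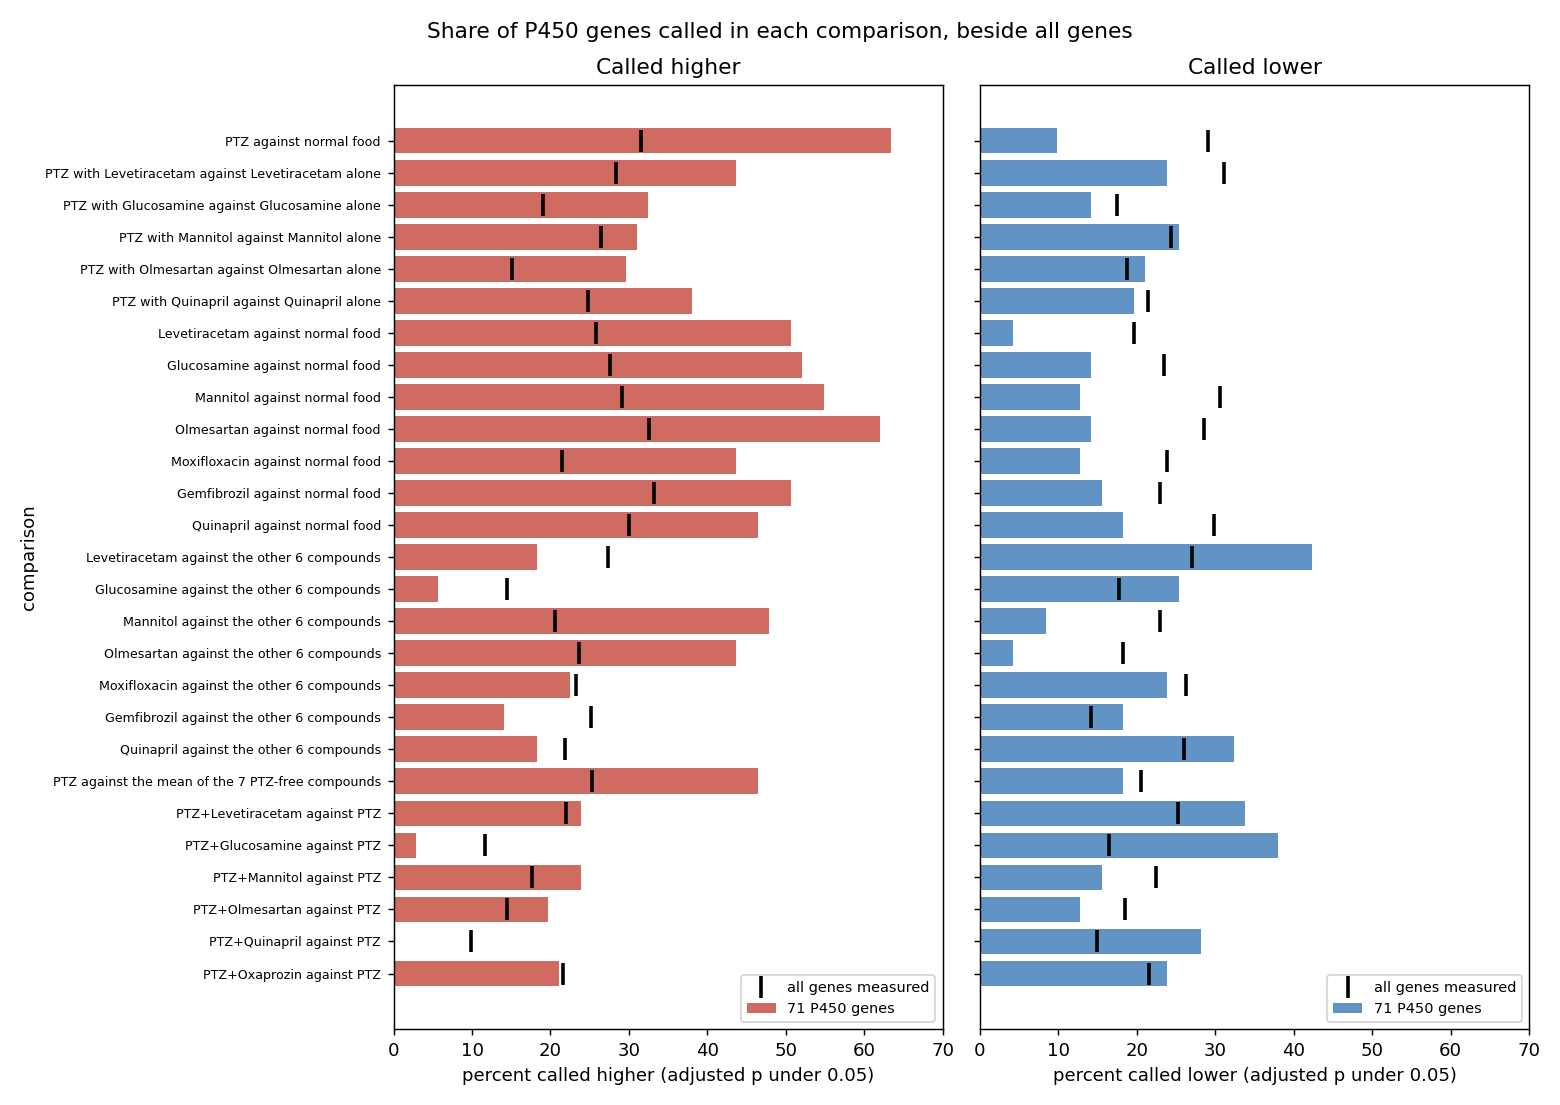
Percent of the 71 genes (bars) and of all 11982 genes (ticks) called higher and lower at an adjusted p under 0.05 in each comparison. In PTZ against normal food 45 of the 71 genes were called higher, where 31.5% of all genes were.

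A change shared by the 6 backgrounds was tested with each pair of group means as 1 unit. By limma 7 of the 71 genes were called higher with PTZ (1.62% of all genes) and 0 lower (1.83% of all genes), and at an unadjusted p under 0.05 the counts were 21 higher and 5 lower. Shares of all genes were not computed for unadjusted counts, here or below, so no lean is read from them. The 7 are Cyp12d1-d, Cyp6d5, Cyp4e2, Cyp4p2, Cyp4p1, Cyp6g1 and Cyp6g2. In the array-level fit these 7 and Cyp12c1 were called higher in each of the 6 comparisons, which is 8 of 71 genes where 2.2% of all genes were, and 0 genes were called lower in all 6, where 1.94% of all genes were. All 28 arrays with PTZ lay above all 30 arrays without it for 5 of the 71 genes (0.734% of all genes): Cyp12d1-d, Cyp6d5, Cyp4e2, Cyp4p1 and Cyp6g1. None of the 71 had all PTZ arrays below (0.2% of all genes). With a variance trend and a robust prior none of the 7 calls over the 6 pairs was kept (adjusted p from 0.0628 to 0.188, with 20 genes higher and 4 lower at an unadjusted p under 0.05). In that setting only 17 of all genes were called higher and 0 lower. Without the mannitol or the quinapril pair 3 genes were called, without normal food or glucosamine 4, without olmesartan 5 and without levetiracetam 6. The 6 include Cyp4ac3, which is not one of the 7, and leave out Cyp4e2 (adjusted p by limma 0.0659) and Cyp6g1 (0.0704). Cyp6d5 and Cyp6g2 were called whichever pair was left out.

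Cyp12d1-d had the highest mean change of the 71 genes over the 6 pairs. Its arrays read 7.33, 7.17, 7.32 and 7.17 in PTZ, against 5.59, 5.96, 5.50 and 5.62 in normal food. They read 6.86, 6.94, 7.25 and 6.83 in PTZ with levetiracetam, against 5.57, 5.80, 5.69 and 5.93 in levetiracetam. In PTZ with glucosamine they read 6.40, 6.59, 6.60 and 6.63, against 5.47, 5.37, 5.07 and 5.63 in glucosamine. No array overlapped between the groups of these 3 pairs. In PTZ with mannitol the arrays read 7.73, 7.56, 7.49 and 7.60, against 5.56, 5.51, 5.73 and 5.50 in mannitol. In PTZ with olmesartan they read 7.06, 7.65, 7.32 and 7.49, against 5.38, 5.52, 5.27 and 5.22 in olmesartan. In PTZ with quinapril they read 7.24, 7.42, 7.46 and 7.32, against 3.91, 4.11, 3.97 and 4.21 in quinapril. These 3 pairs did not overlap either, and quinapril alone had the lowest level of the 15 diets.

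The mean change of Cyp12d1-d over the 6 pairs was 1.89 ± 0.26, or 3.7-fold (adjusted p = 0.0164), and without the mannitol pair the adjusted p was 0.0512. The rise was 9.91-fold on quinapril and 2.25-fold on glucosamine, the extremes of the 6, and the 6 effects differed (moderated F test of limma, adjusted p = 1.29e-16). Cyp12d1-d has a nearly identical copy, Cyp12d1-p, and the signals of the copies may not be separable. A probe set annotated to both, left out by the rule, changed by 2.15 ± 0.20 over the 6 pairs (adjusted p = 0.00512), from 1.40 on mannitol to 2.91 on levetiracetam. It changed by 2.39 on quinapril and 1.53 on glucosamine, so the order of the backgrounds differed between the probe sets.

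Cyp6d5, a CYP6 enzyme, read 12.05 to 12.54 (median 12.21) on the 28 arrays with PTZ, against 10.62 to 11.73 (median 11.22) on the 30 arrays without it. Its mean change was 1.04 ± 0.14, or 2.06-fold (adjusted p = 0.0156), from 0.48 on mannitol to 1.58 on normal food. Cyp4e2, a CYP4 enzyme, read 11.34 to 11.78 (median 11.61) with PTZ, against 9.97 to 11.28 (median 10.55) without it. Its mean change was 0.95 ± 0.16, or 1.93-fold (adjusted p = 0.028), from 0.25 on mannitol to 1.57 on normal food. Leaving out any pair but mannitol ended the call of Cyp4e2 (adjusted p from 0.0519 to 0.0861). Among the 8 diets without PTZ, mannitol had the highest mean of both genes. On mannitol Cyp4e2 read 11.46, 11.48, 11.55 and 11.50 with PTZ, against 11.23, 11.28, 11.25 and 11.23 without it, a narrow gap with no overlap.

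Cyp4p1 and Cyp4p2 are neighbouring CYP4 genes. Cyp4p1 read 10.26 to 10.79 (median 10.57) with PTZ, against 9.70 to 10.22 (median 9.99) without it, and its mean change was 0.60 ± 0.083 (adjusted p = 0.0163). Cyp4p2 read 6.32 to 7.38 (median 6.94) with PTZ, against 5.94 to 6.59 (median 6.19) without it, and its mean change was 0.69 ± 0.11 (adjusted p = 0.0225). Arrays with and without PTZ overlapped for Cyp4p2. Its smallest change was 0.23 on levetiracetam, and with the 5′ minus 3′ signal as a covariate that value was -0.29 and not called (adjusted p = 0.293). The covariate also ended the call of Cyp4p2 over the 6 pairs (change 0.57, adjusted p = 0.109). Without the glucosamine, mannitol, normal food or quinapril pair Cyp4p2 was not called either (adjusted p from 0.053 to 0.0777). Cyp4p1 was not called without the mannitol pair (adjusted p = 0.0512) or the quinapril pair (0.0567).

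Cyp6g1 read 13.14 to 13.34 (median 13.27) with PTZ, against 12.32 to 13.0 (median 12.75) without it, with a mean change of 0.51 ± 0.088 (adjusted p = 0.0285). That call was lost whichever of the 6 pairs was left out (adjusted p from 0.0512 to 0.0783, changes from 0.44 to 0.56). The group means of Cyp6g1 ran from 13.15 to 13.32 with PTZ and from 12.41 to 12.99 without it, so the 7 groups with PTZ lay close together. The mean level of Cyp6g1 stood at percentile 99.8 of all probe sets, and whether differences are compressed at that end was not tested. Cyp6g2, its neighbour, also tied to insecticide resistance when overexpressed, read 4.48 to 5.50 (median 4.82) with PTZ, against 4.16 to 4.81 (median 4.46) without it. Its mean change was 0.46 ± 0.057 (adjusted p = 0.0114), from 0.29 on glucosamine to 0.58 on normal food. Cyp6g2 was the one gene of the 7 whose 6 effects were not called different (moderated F test of limma, adjusted p = 0.434). Cyp12c1, a mitochondrial-clan gene called higher in each background, had a mean change of 0.39 ± 0.10 that was not called over the 6 pairs (adjusted p = 0.0982).

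**Figure D3:**
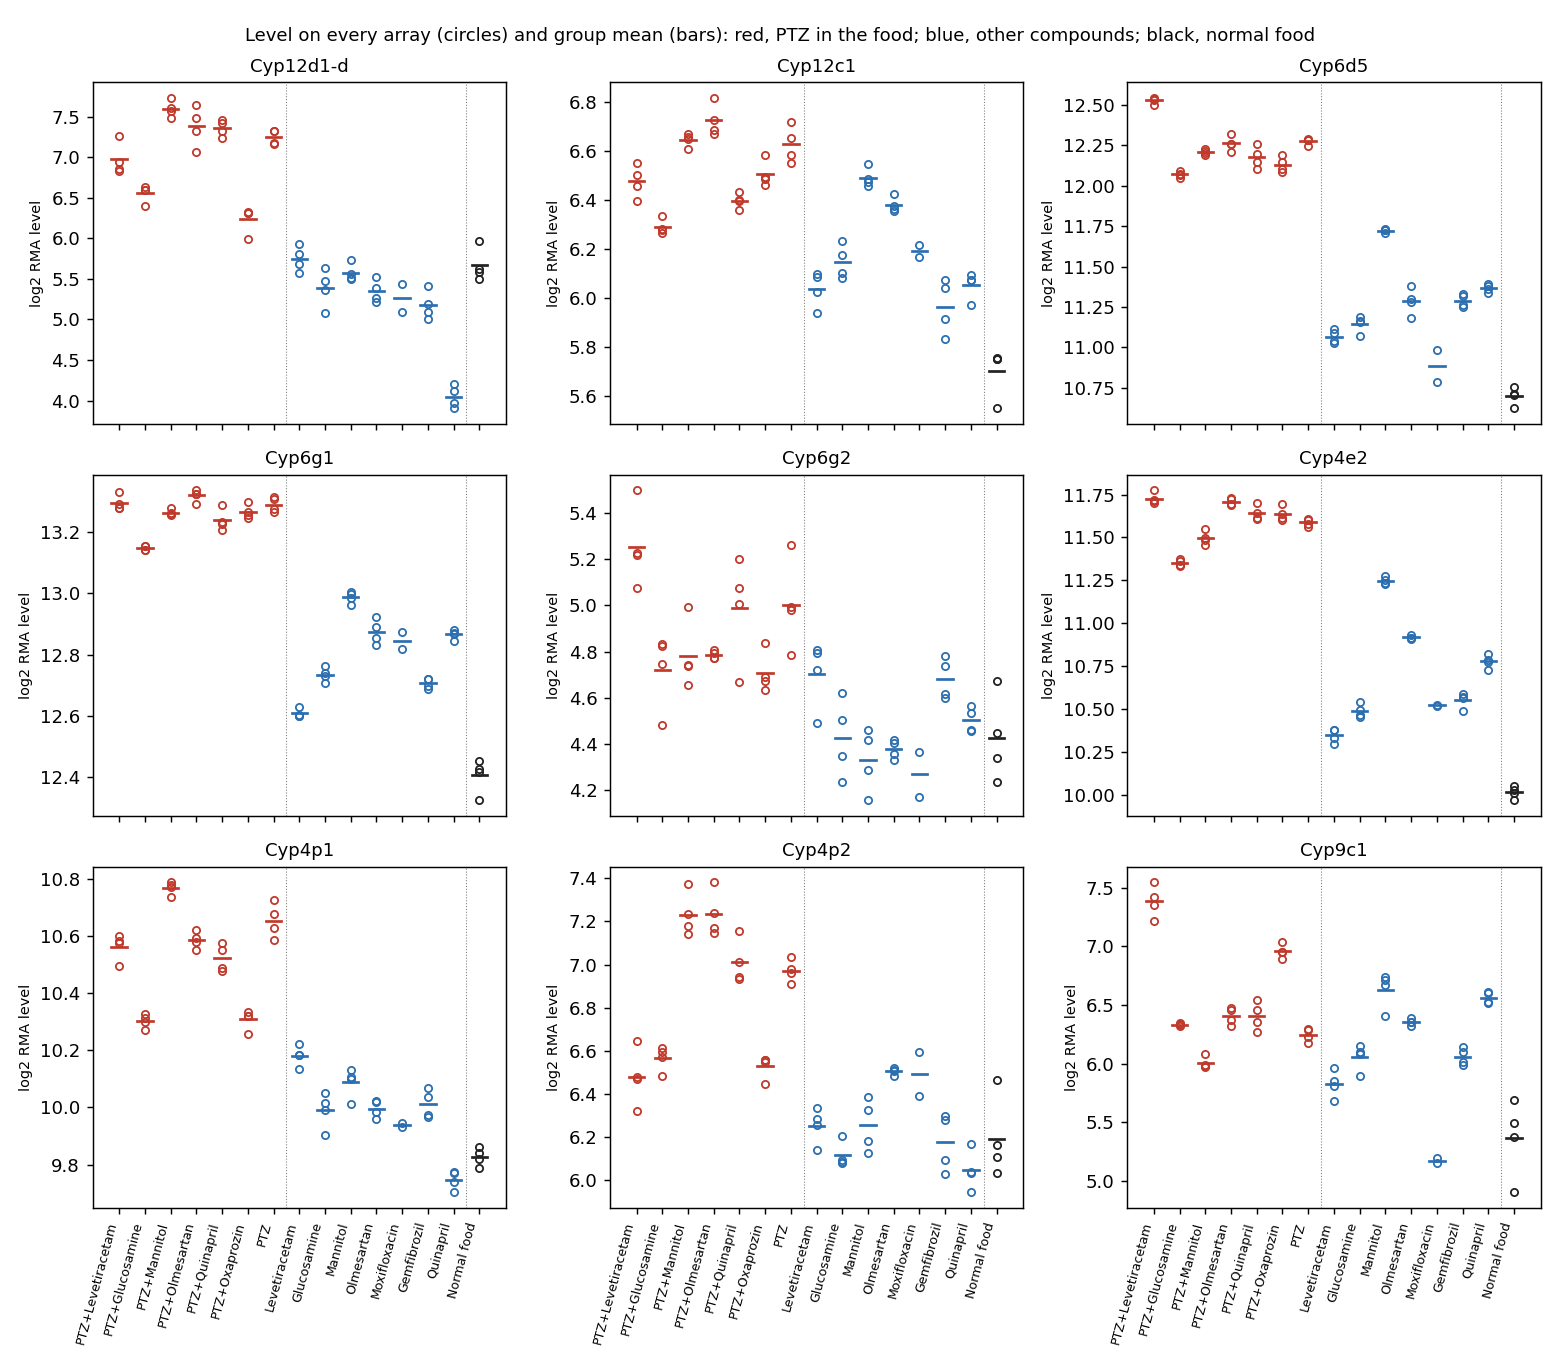
Log2 RMA level of 9 genes on every array (circles) with the group mean (bars), in the 7 groups with PTZ (red), the 7 groups with a single other compound (blue) and normal food (black). For Cyp12d1-d, Cyp6d5, Cyp6g1, Cyp4e2 and Cyp4p1 every red circle lies above every blue and black one.

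The 6 effects of PTZ were called different for 56 of the 71 genes, where 78% of all genes were, so the share is near that of genes in general. In 31 of the 71 genes, where 38.6% of all genes were of this kind, PTZ was called higher on at least 1 background and lower on at least 1 other: 15 of 31 CYP4 genes, 10 of 28 CYP6/9/28 genes, 3 of 8 CYP12/mitochondrial genes and 3 of 4 CYP2 genes. All 6 changes were above 0 in 15 of the 71 genes (6.96% of all genes) and below 0 in 0 (5.78% of all genes).

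Cyp9c1 had opposite changes on levetiracetam and mannitol. It read 7.35, 7.42, 7.22 and 7.55 in PTZ with levetiracetam, against 5.96, 5.85, 5.68 and 5.81 in levetiracetam (change 1.55 ± 0.086). It read 5.97, 5.99, 6.08 and 5.98 in PTZ with mannitol, against 6.74, 6.67, 6.40 and 6.71 in mannitol (change -0.62 ± 0.086). Neither pair overlapped.

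Cyp4g15, a CYP4 gene read in the brain and nervous system, showed the same opposition. It read 8.21, 8.11, 8.01 and 8.35 in PTZ with levetiracetam, against 6.71, 6.78, 6.94 and 6.62 in levetiracetam (change 1.41 ± 0.062). It read 6.67, 6.62, 6.78 and 6.65 in PTZ with mannitol, against 7.40, 7.40, 7.34 and 7.44 in mannitol (change -0.72 ± 0.062). Again no arrays overlapped.

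Cyp4ac3 had its extremes on the same backgrounds in the reverse order. It read 8.04, 7.94, 7.98 and 8.0 in PTZ with mannitol, against 6.15, 6.13, 6.03 and 6.10 in mannitol (change 1.89 ± 0.053). It read 6.57, 6.35, 6.41 and 6.53 in PTZ with levetiracetam, against 6.56, 6.51, 6.49 and 6.42 in levetiracetam, with overlapping arrays (change -0.024 ± 0.053, not called). On the other 4 backgrounds it was called higher with PTZ, by 0.64 on glucosamine up to 1.01 on normal food. Its mean over the 6 pairs, 0.86 ± 0.21, was not called (adjusted p = 0.0786), and without the levetiracetam pair the adjusted p was 0.0482. Leaving out the other pairs in turn gave adjusted p from 0.109 to 0.19.

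Cyp12a4 rose by 1.34 on normal food and 0.80 on levetiracetam, and also by 0.18 on glucosamine and 0.16 on olmesartan. It was called lower on mannitol, with overlapping arrays (change -0.082), and not called on quinapril (0.025). Its group means ran from 8.99 to 9.46 with PTZ and from 7.91 to 9.30 without it, so the spread was wider among the diets without PTZ. Cyp28d1 had PTZ changes of 1.36 on normal food, 1.08 on levetiracetam, 0.42 on olmesartan, 0.25 on glucosamine, -0.053 on quinapril and -0.065 on mannitol, of which the first 4 were called higher and the last 2 were not called. In both genes mannitol was the highest of the 8 diets without PTZ and normal food the lowest.

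Cyp4d21, known as sxe1 and read in the fat body of male heads, rose by 0.40 on normal food and 0.23 on glucosamine. It fell by 0.64 on mannitol, 0.29 on levetiracetam and 0.28 on quinapril. Cyp305a1 rose by 0.17 on normal food and fell on the other 5 backgrounds, most on olmesartan, where it read 6.93, 6.90, 6.86 and 6.80 in PTZ with olmesartan, against 7.54, 7.50, 7.63 and 7.47 in olmesartan (change -0.66 ± 0.051). Cyp4e3 also rose on normal food, by 0.43, and fell on the other 5, by 0.31 on levetiracetam to 0.95 on quinapril. Cyp28d2 had the lowest mean change of the 71 genes, -0.53 ± 0.18, which was not called (adjusted p = 0.161). Its greatest fall was on levetiracetam, where it read 4.37, 4.46, 4.27 and 4.26 with PTZ, against 5.86, 5.67, 5.57 and 5.48 without it.

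Cyp6t3 rose on normal food, levetiracetam and mannitol, by 0.96, 0.36 and 0.40, and was not called on olmesartan (0.29), quinapril (0.14) or glucosamine (-0.11). Cyp18a1 was called higher on olmesartan (0.42) and quinapril (0.27) and lower on the other 4 backgrounds. Its change on levetiracetam, -0.12, was 0.17 for the mean of both probe sets. The second probe set of Cyp18a1 was called higher on normal food (0.29), levetiracetam (0.46), olmesartan (0.23) and quinapril (0.39). It was not called on glucosamine (-0.052) or mannitol (0.14), so it bears out none of the lower calls. Cyp301a1 was called on none of the 6 backgrounds, with changes from -0.052 to 0.19. Cyp303a1, needed for sensory bristles, was called lower on glucosamine (-0.37) and higher on mannitol (0.32), in the low range of levels.

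**Figure D4:**
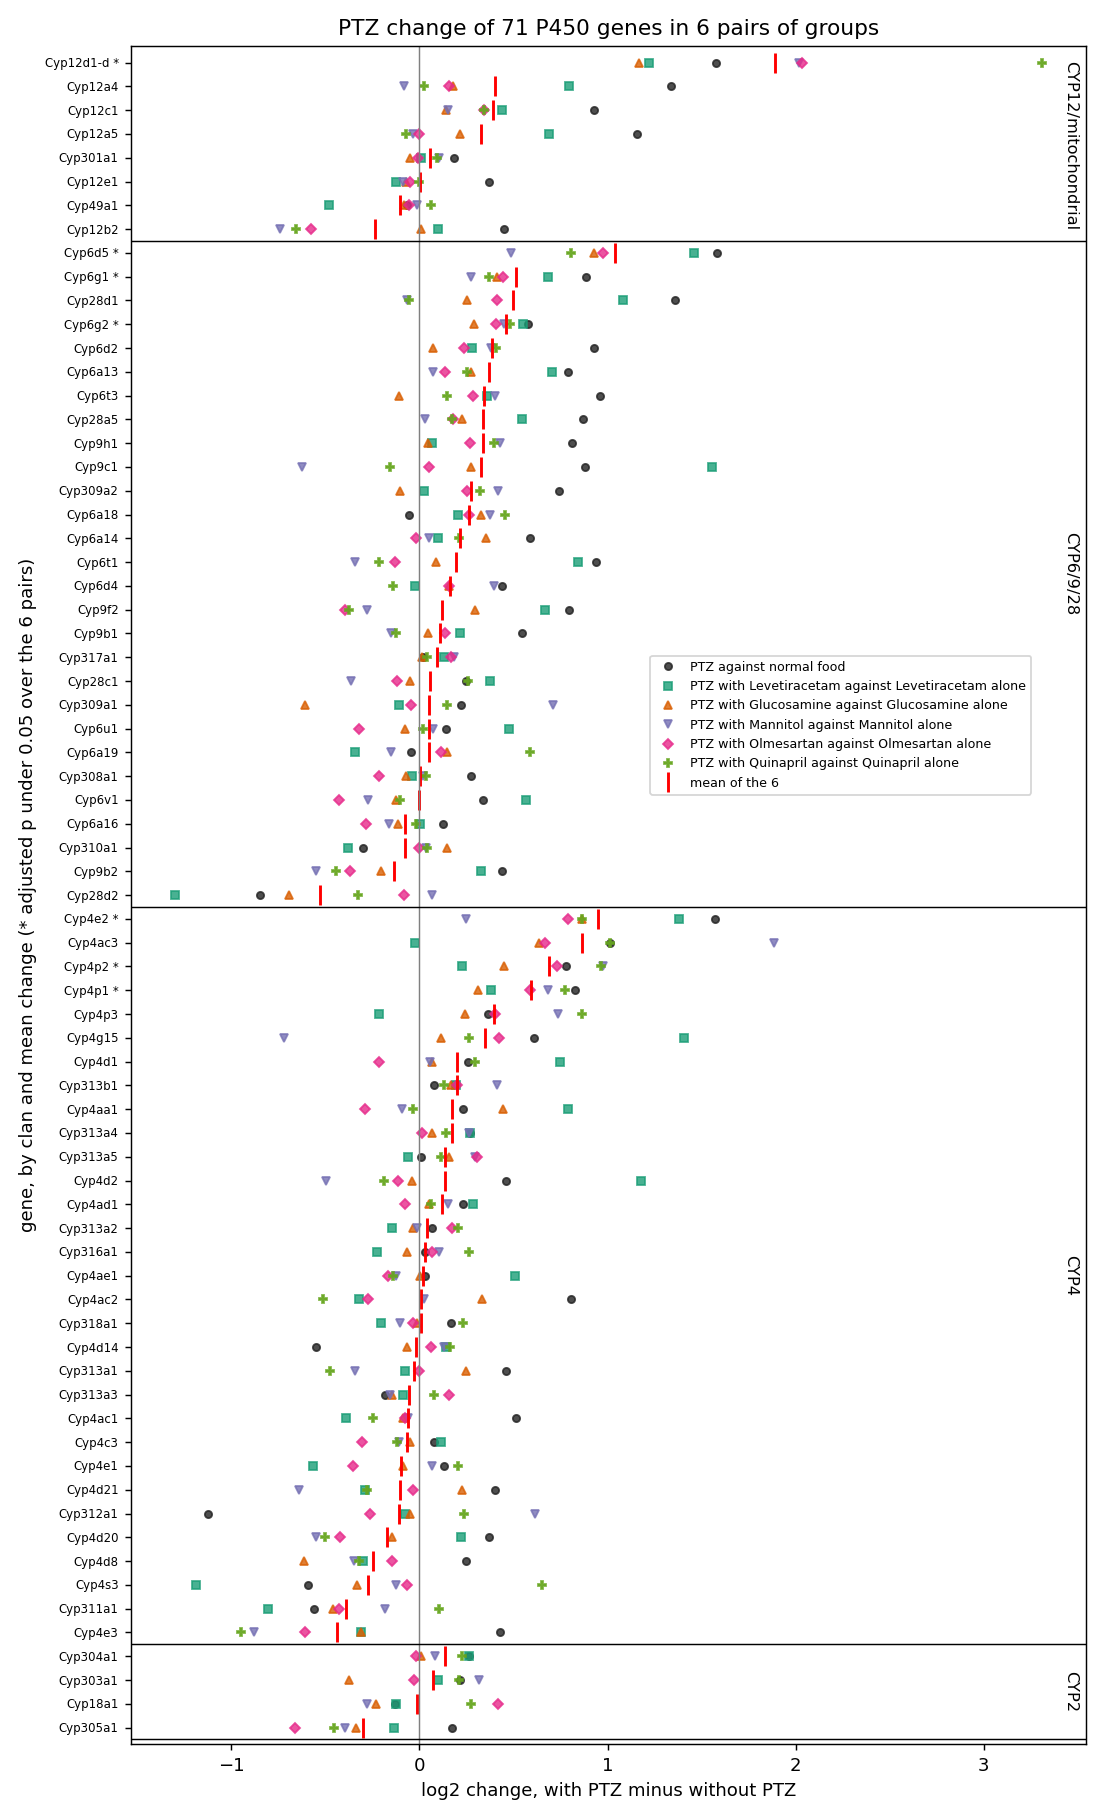
Log2 change with PTZ minus without PTZ for each of the 71 genes (down the page) in 6 backgrounds (symbols), with the mean of the 6 as a red bar and an asterisk for an adjusted p under 0.05 over the 6 pairs. All 6 symbols of the 7 marked genes lie right of 0.

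Fly P450 genes often stand in clusters of relatives, and neighbours in the gene order of the Release 6 plus ISO1 MT assembly were compared over the 6 PTZ changes. There are 19 neighbouring pairs among the 71 genes. The exact two-sided sign-flip test over 6 differences cannot give a p below 0.0312, and after adjustment over the 19 pairs no p was under 0.148. The change of Cyp4e2 exceeded that of Cyp4e1 in 6 of 6 backgrounds, by 1.05 on average (SD 0.61, exact p = 0.0312, adjusted p = 0.148). Cyp4e1 read 6.17, 6.17, 6.09 and 6.14 in PTZ, against 6.06, 5.93, 6.02 and 6.03 in normal food, and its 6 changes ran from -0.56 to 0.21.

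Cyp4ac2 and Cyp4ac3 differed by -0.86 on average, with Cyp4ac3 the higher change in 6 of 6 backgrounds (SD 0.71, exact p = 0.0312, adjusted p = 0.148). On mannitol, where Cyp4ac3 rose most, Cyp4ac2 read 6.90, 6.97, 6.95 and 6.92 in PTZ with mannitol, against 6.95, 6.92, 6.92 and 6.84 in mannitol, with overlapping arrays. Cyp28d2 and Cyp28d1 differed by -1.03 on average, with Cyp28d1 the higher in 5 of 6 (SD 1.04, exact p = 0.0625, adjusted p = 0.238). Cyp4ad1 and Cyp4e2 differed by -0.83, with Cyp4e2 the higher in 6 of 6 (SD 0.42, exact p = 0.0312, adjusted p = 0.148), and Cyp311a1 and Cyp318a1 by -0.40, with Cyp318a1 the higher in 6 of 6 (SD 0.26, exact p = 0.0312, adjusted p = 0.148). The mean differences of the other 14 pairs lay between -0.22 and 0.28. Among them, Cyp4p2 and Cyp4p1 differed by 0.094 on average (SD 0.17), Cyp6g1 and Cyp6g2 by 0.052 (SD 0.18) and Cyp12a5 and Cyp12a4 by -0.076 (SD 0.099).

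**Figure D5:**
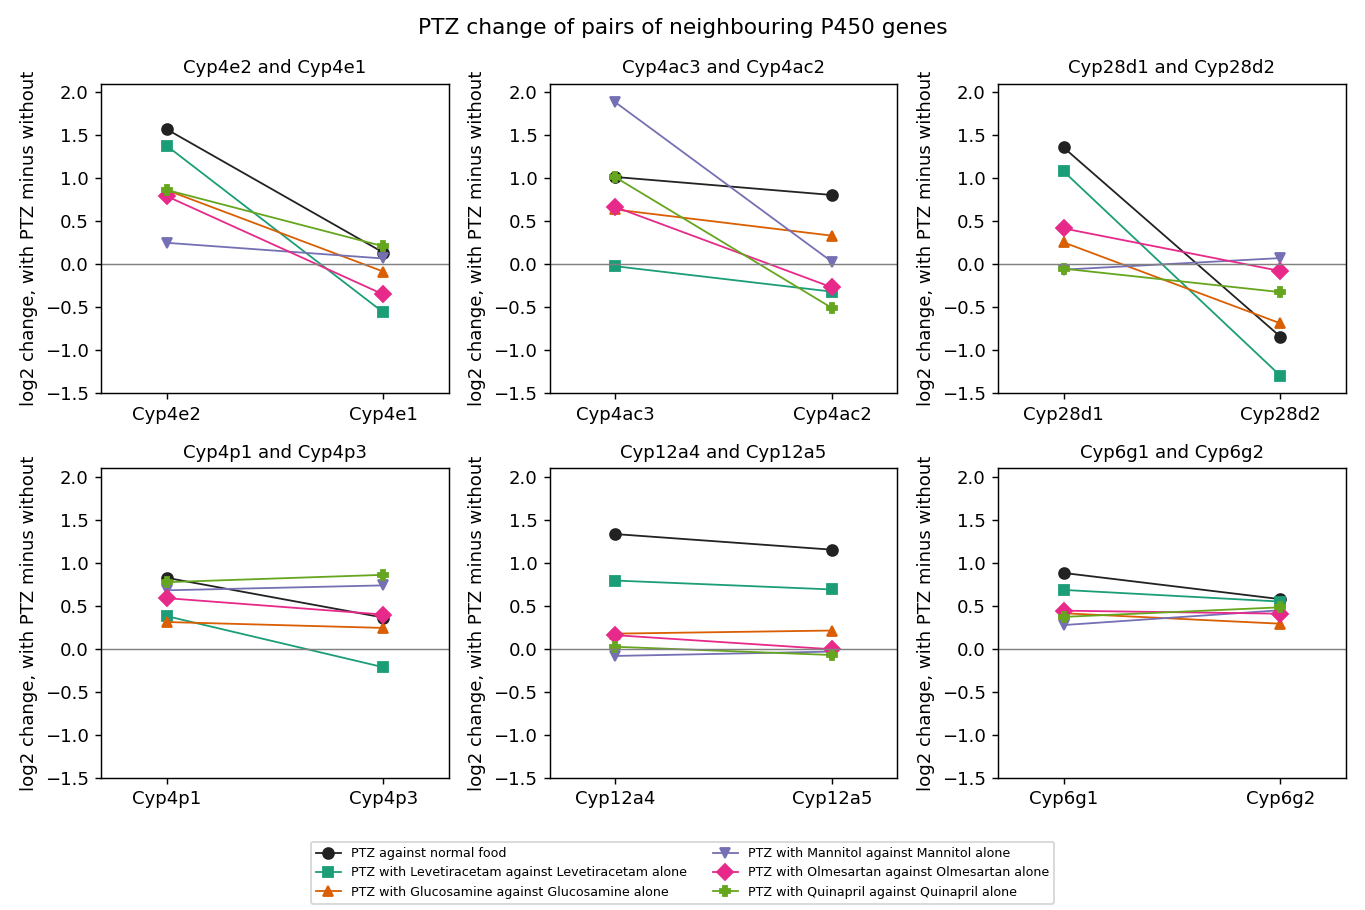
Log2 change with PTZ minus without PTZ in 6 backgrounds for 6 pairs of neighbouring genes. The change of Cyp4e2 exceeds that of Cyp4e1, and that of Cyp4ac3 exceeds that of Cyp4ac2, in 6 of 6 backgrounds.

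Each single compound was compared with normal food, and these 7 comparisons share the 4 normal food arrays with each other and with PTZ. Called higher and lower were 36 and 3 of the 71 genes for levetiracetam (25.8% and 19.6% of all genes), 37 and 10 for glucosamine (27.6% and 23.5%), 39 and 9 for mannitol (29.1% and 30.6%), and 44 and 10 for olmesartan (32.5% and 28.6%). They were 31 and 9 for moxifloxacin (21.5% and 23.9%), 36 and 11 for gemfibrozil (33.2% and 22.9%), and 33 and 13 for quinapril (30% and 29.9%). Cyp28d1 changed by 1.70 ± 0.034 with mannitol and 0.57 ± 0.034 with levetiracetam, the extremes of the 7 compounds. Cyp12a4 changed by 1.39 ± 0.032 with mannitol and 0.61 ± 0.032 with levetiracetam. Leaving out array 1 of moxifloxacin left 4 of its 9 lower calls in number, and leaving out array 2 of glucosamine left 6 of 10.

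Each compound was also compared with the other 6 single compounds taken as a mean, which does not use normal food. These comparisons share arrays, so a high level in one compound lowers the values of the rest, and a low level raises them. Mannitol had 34 genes called higher (20.6% of all genes) and 6 lower (22.9%), and olmesartan 31 higher (23.6%) and 3 lower (18.3%). Levetiracetam had 13 higher (27.3%) and 30 lower (27%), quinapril 13 higher (21.8%) and 23 lower (26%), and glucosamine 4 higher (14.5%) and 18 lower (17.7%). Moxifloxacin had 16 higher (23.2%) and 17 lower (26.3%), and gemfibrozil 10 higher (25.2%) and 13 lower (14.2%). Without array 1 of moxifloxacin its lower calls numbered 11.

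Quinapril was marked by Cyp12d1-d, whose 4 arrays read 3.91 to 4.20, against 5.01 to 5.94 on the 22 arrays of the other compounds (change -1.37 ± 0.087, adjusted p = 2.03e-18). Its Cyp4s3 arrays read 5.11 to 5.53, against 5.76 to 6.55 on the others (change -0.66 ± 0.063). Neither gene overlapped. Cyp9c1 was higher by 0.55 ± 0.066 and Cyp4d2 by 0.36 ± 0.040, both with overlap.

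Moxifloxacin rests on 2 arrays. Cyp9c1 read 5.16 and 5.19 there, against 5.68 to 6.74 on the 24 arrays of the other compounds (change -1.07 ± 0.089, adjusted p = 1.77e-14), and Cyp12b2 read 6.34 and 6.39, against 6.69 to 7.46 (change -0.75 ± 0.058). Cyp4ac2 read 7.15 and 7.22, against 6.14 to 7.05 (change 0.58 ± 0.076), and Cyp4e1 6.82 and 6.74, against 5.80 to 6.58 (change 0.47 ± 0.060). None of these 4 genes overlapped, but they were chosen for the size of their change, so this goes with the choice.

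Mannitol had Cyp4e2 at 11.23 to 11.28, against 10.30 to 10.93 on the other compounds' arrays (change 0.65 ± 0.023), and Cyp4ac3 at 6.03 to 6.15, against 6.27 to 6.80 (change -0.45 ± 0.041), neither with overlap. Cyp9c1 was higher (0.62 ± 0.066) and Cyp28d2 lower (-0.46 ± 0.070), both with overlap. In levetiracetam, Cyp9f2 read 8.68 to 8.86, against 9.06 to 9.82 on the others (change -0.76 ± 0.027), and Cyp12a5 5.62 to 5.68, against 6.0 to 6.60 (change -0.73 ± 0.044). Cyp4s3 lay above all other arrays there, at 6.32 to 6.55, against 5.11 to 6.24 (change 0.55 ± 0.063), and Cyp12d1-d was higher by 0.62 ± 0.087 with overlap.

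Glucosamine had Cyp4d21 at 10.08 to 10.14, against 10.28 to 11.07 on the others (change -0.60 ± 0.025), with no overlap. With overlap, Cyp4ac2 was lower (-0.56) and Cyp309a1 and Cyp303a1 higher (0.39 and 0.37), Cyp303a1 in the low range of levels. In olmesartan Cyp9f2 (0.42), Cyp4ac2 (0.38), Cyp28d2 (-0.50) and Cyp18a1 (-0.19) were called, all with overlap. In gemfibrozil Cyp12b2 (0.43), Cyp4ae1 (0.33), Cyp12c1 (-0.25) and Cyp12a4 (-0.25) were called, likewise with overlap.

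The combinations were set against PTZ alone, whose 4 arrays all 6 comparisons share. PTZ with levetiracetam had 17 of the 71 genes called higher (22% of all genes) and 24 lower (25.3%). PTZ with glucosamine had 2 higher (11.6%) and 27 lower (16.5%), PTZ with mannitol 17 higher (17.6%) and 11 lower (22.4%), and PTZ with olmesartan 14 higher (14.4%) and 9 lower (18.5%). PTZ with quinapril had 0 higher (9.9%) and 20 lower (14.9%) by limma, and 2 higher and 22 lower at an unadjusted p under 0.05. PTZ with oxaprozin had 15 higher (21.6%) and 17 lower (21.5%). Without array 3 of PTZ the lower calls for olmesartan numbered 4, and without array 3 of the combination 5.

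In PTZ with levetiracetam Cyp9c1 read 7.35, 7.42, 7.22 and 7.55, against 6.22, 6.29, 6.29 and 6.17 in PTZ, a rise of 1.14 ± 0.086 (adjusted p = 5.94e-16). Cyp4d2 read 8.54, 8.54, 8.39 and 8.59 in the combination, against 7.67, 7.55, 7.58 and 7.63 in PTZ (change 0.91 ± 0.052). Cyp4ac3 fell by 0.84 and Cyp4s3 by 0.65. The arrays of these 4 genes did not overlap. With the 5′ minus 3′ signal as a covariate 2 genes were called higher and 14 lower.

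In PTZ with oxaprozin Cyp9c1 read 7.04, 6.89, 6.95 and 6.95, against 6.22, 6.29, 6.29 and 6.17 in PTZ (change 0.71 ± 0.086). Cyp12d1-d read 6.32, 6.0, 6.32 and 6.31 in the combination, against 7.33, 7.17, 7.32 and 7.17 in PTZ (change -1.01 ± 0.11, adjusted p = 1.5e-10). Even these arrays lay above all 30 arrays without PTZ, but narrowly: the lowest read 5.995, against 5.964 on the highest array without PTZ. Cyp28d1 rose by 0.54 and Cyp4p2 fell by 0.45. With the 5′ minus 3′ signal as a covariate 6 genes were called higher.

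In PTZ with glucosamine Cyp6t3 read 3.93, 4.12, 3.82 and 4.12, against 4.60, 4.74, 4.78 and 4.77 in PTZ (change -0.72 ± 0.12), and Cyp12d1-d changed by -0.69 ± 0.11. The 2 genes called higher were Cyp310a1, tied to wingless signalling but in the low range of levels, by 0.24 and Cyp313a1 by 0.17. In PTZ with mannitol Cyp309a1 read 7.75, 7.80, 7.64 and 7.77, against 6.92, 6.97, 6.87 and 7.07 in PTZ (change 0.78 ± 0.060), and Cyp4ac3 rose by 0.68. Cyp4g15 fell by 0.68 and Cyp28c1 by 0.47. Both combinations differ from PTZ alone in their bioB level. With that level as a block 1 gene was called higher and 12 lower for glucosamine, and 2 lower for mannitol. The level did not vary within any of these groups, so it and the diet cannot be told apart here.

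In PTZ with olmesartan Cyp4d21 read 10.75, 10.87, 10.75 and 10.84, against 10.24, 10.28, 10.24 and 10.27 in PTZ (change 0.54 ± 0.032), and Cyp313a1 rose by 0.54. Cyp6v1 fell by 0.40 and Cyp312a1 by 0.38. In PTZ with quinapril Cyp4e3 read 6.53, 6.33, 6.23 and 6.56, against 6.86, 6.94, 7.05 and 7.10 in PTZ, with no overlap (change -0.58 ± 0.058), and Cyp6t3 fell by 0.45.

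Genes that serve or control P450s were read from lists. In PTZ against normal food 31.5% of all genes were called higher and 29.1% lower, and over the 6 pairs 1.62% and 1.83%. The 4 measured genes of an electron donor list, which do not include cytochrome P450 reductase, were called higher in PTZ than in normal food: Cyt-b5 by 0.59, the ferredoxins Fdx1 by 0.48 and Fdx2 by 0.15, and Cyt-b5-r by 1.32. Cyt-b5-r encodes a cytochrome b5-related protein of the fatty acid desaturase family and is not known as an electron donor of P450s. Over the 6 pairs 0 of the 4 were called by limma and 1 was higher at an unadjusted p under 0.05, with changes of 0.37 for Cyt-b5, 0.29 for Fdx1, 0.080 for Fdx2 and 0.48 for Cyt-b5-r. Of 8 genes of haem synthesis and breakdown, 5 were called higher and 2 lower in PTZ against normal food, with Urod, an enzyme of haem synthesis, at 1.29. Over the 6 pairs 0 of these 8 were called and 1 was higher at an unadjusted p under 0.05. Of 11 transcriptional regulators 4 were called higher and 5 lower against normal food, and 1 was called over the 6 pairs: maf-S, a small Maf protein that pairs with the factor encoded by cnc (change 0.48, adjusted p = 0.0337). Over the 6 pairs cnc itself changed by -0.15 and Keap1, which restrains it, by 0.10, neither called.

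Of the 10 P450s left out by the rule, 7 were called higher and 2 lower in PTZ against normal food (31.5% and 29.1% of all genes). Over the 6 pairs 3 of them were called higher (1.62% of all genes), Cyp6a8 by 2.54, Cyp6a2 by 2.02 and Cyp6w1 by 1.85. Among the 71 genes Cyp12d1-d alone exceeded the change of Cyp6w1. Over the same pairs 3 of 8 neuron markers and 4 of 7 antenna markers were called lower with PTZ (1.83% of all genes), with medians of -0.53 and -0.86. At an unadjusted p under 0.05 by limma, 6 of the 8 neuron and 6 of the 7 antenna markers were lower and 0 higher. Of the fat body markers 1 of 7 was called lower (median 0.024), of the muscle markers 1 of 8 lower (median -0.042) and of the Malpighian tubule markers 1 of 5 higher (median -0.028). Unadjusted, fat body had 1 higher and 1 lower, muscle 0 and 1, and Malpighian tubule 2 and 1. For the male reproductive tract 0 of 17 markers were called there by limma (median -0.74) and for the gut 0 of 9 (median -0.28), with 0 in either list at an unadjusted p under 0.05. The glia and eye lists also had 0 called, with medians of -0.014 and -0.029, and 1 glia marker was lower at an unadjusted p under 0.05.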

How the data were processed

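Head RNA of 15 groups of flies was measured on Affymetrix Drosophila Genome 2.0 arrays. The deposited values are log2 intensities of probe sets, taken to be RMA values because the submitters' processing notes name RMA beside limma, with no role, setting or version. RMA makes the arrays' distributions alike, so a change is relative to the other probe sets. The table has 18952 rows, of which 183 control probe sets were left out of the tests, and 0 columns of other samples. Of the 18769 remaining probe sets 13647 name 1 gene, 402 several and 4720 none in GEO's platform annotation. Here limma 3.58.1 in R 4.3.3 fitted a mean per group to all 58 arrays (43 residual degrees of freedom), with Benjamini-Hochberg adjustment within each comparison over all 18769 probe sets and calls at 0.05. For the test over 6 pairs, the 6 differences of group means were fitted with an intercept. The members and all gene lists were chosen with earlier results of these data known. All members may be named; array values are given for genes called over the 6 pairs, the widest range in each clan, up to 2 rises and 2 falls per compound or combination, and genes with a textbook role, and those of Cyp28d1, Cyp312a1, Cyp28d2 and Cyp4e1 in comparisons beyond that rule were chosen after their values were seen. No 2 arrays held identical values. Arrays of the same number deviated together by correlations of -0.127 to 0.138, and in 0 comparisons were all pairs above 0.1, so the numbers were not taken as pairs. The fits were tested on simulated data. Alternatives covered the prior, normalization, dim probe sets, groups fitted, replicate block, arrays and pairs left out, probe set choice, the 5′ minus 3′ signal and the bioB level.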

Additional observations from a re-analysis of the deposited data

Results flagged for a closer look

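In 10 of the 168 groups of 4 arrays examined, 1 array stood apart from the other 3 by Dixon's criterion, and chance gives about 1 in 20 groups. Cyp12d1-d read 6.402 on array 1 of PTZ with glucosamine, where the others read 6.591 to 6.629, and 5.995 on array 2 of PTZ with oxaprozin, where the others read 6.314 to 6.318. Cyp4p2 read 6.447 on the same array of PTZ with oxaprozin, with the others at 6.55 to 6.556, and 6.203 on array 2 of glucosamine, with the others at 6.08 to 6.093. Cyp6g1 read 12.629 on array 3 of levetiracetam, with the others at 12.599 to 12.604. The median level of the CYP12/mitochondrial clan was 6.375 on array 1 of PTZ with glucosamine (others 6.482 to 6.483), and that of the CYP6/9/28 clan was 6.269 on array 4 of PTZ with olmesartan (others 6.162 to 6.178). The median of the CYP2 clan, which has 4 genes, was 4.874 on array 1 of PTZ (others 4.765 to 4.769), 4.988 on array 2 of mannitol (others 4.86 to 4.882) and 4.677 on array 4 of quinapril (others 4.532 to 4.554).

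The PTZ effect differed between the 6 backgrounds for 15 of 17 genes by the moderated F test of limma, which called 78% of all genes; some of the 17 were named for wide ranges of their group means, so nothing is read from this count. From the smallest to the largest of the 6 effects the distance was 2.18 on the log2 scale for Cyp9c1, 2.14 for Cyp12d1-d, 2.13 for Cyp4g15 and 1.91 for Cyp4ac3. It was 1.42 for Cyp12a4, 1.32 for Cyp4e2, 1.09 for Cyp6d5, 1.07 for Cyp6t3 and 1.04 for Cyp4d21. It was 0.83 for Cyp305a1, 0.75 for Cyp4p2, 0.70 for Cyp18a1, 0.69 for Cyp303a1, 0.61 for Cyp6g1 and 0.51 for Cyp4p1. For Cyp12d1-d and Cyp4p2 all 6 effects were above 0, and for Cyp9c1 and Cyp4g15 they lay on both sides of 0.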

How the results depend on the processing

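Of the counts of genes called, those below moved by over 1.5 times; the cause was not tested. With a variance trend and a robust prior 0 genes were called higher over the 6 pairs, and without the normal food, glucosamine, mannitol or quinapril pair 4, 4, 3 and 3 were. A further quantile normalization gave 1 gene higher for PTZ with quinapril against PTZ. Subtracting array medians gave 4, 6 and 5 genes lower for glucosamine, olmesartan and gemfibrozil against normal food, 7 higher for glucosamine against the other compounds, and against PTZ 1 higher for PTZ with glucosamine and 19 lower for PTZ with olmesartan. Without the dimmest 40% of probe sets 7 were lower for gemfibrozil against normal food. Fitting only the groups compared gave 1 higher for PTZ with glucosamine and 11 lower for PTZ with quinapril against PTZ. The 5′ minus 3′ covariate gave 14 higher and 11 lower for PTZ with levetiracetam against levetiracetam, 6 and 5 lower for glucosamine and olmesartan against normal food, and 10 lower for moxifloxacin against the other compounds. Against PTZ it gave 2 higher and 14 lower with levetiracetam, 5 lower with olmesartan, 2 higher with quinapril and 6 higher with oxaprozin. The bioB block gave 5 and 7 lower for moxifloxacin and gemfibrozil against normal food, 2 higher for glucosamine and 3 lower for mannitol against the other compounds, and against PTZ 1 higher and 12 lower with glucosamine and 2 lower with mannitol. Leaving out 1 array at a time gave 6 to 10 lower for glucosamine and 4 to 9 lower for moxifloxacin against normal food, and 11 to 18 lower for moxifloxacin against the other compounds. Against PTZ it gave 1 to 2 higher with glucosamine, 4 to 10 lower with olmesartan and 0 to 1 higher with quinapril; the 1 higher gene with quinapril came without array 1 of PTZ or array 3 of the combination, and 1 with glucosamine without array 1, 3 or 4 of PTZ or array 1 or 4 of the combination.

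Of the 358 values of single genes, 33 changed sign in at least 1 alternative, 30 of them among the 83 not called. Of the 275 called values 3 did so: Cyp18a1 in PTZ against normal food was 0.015 with array medians subtracted and 0.079 for the mean of its probe sets, Cyp18a1 in PTZ with levetiracetam against levetiracetam was 0.17 for that mean, and Cyp4p2 in the same comparison was -0.29 with the 5′ minus 3′ covariate. With the replicate number as a block (replicate block), all counts stayed within 1.5 times, 7 genes were called higher over the 6 pairs, and among single genes the call of Cyp4ac1 in PTZ with glucosamine against glucosamine changed (-0.086, adjusted p = 0.0487 by limma). The count of an antioxidant response motif in promoters was not run. The limits are the 4 arrays a group, 2 for moxifloxacin, and the 14 genes in the low range of signal.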
